A study of Homo sapiens with 12 samples.

Results

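Mitosis, spindle and kinetochore genes were followed in AGS cells, an established human gastric cancer line, during treatment with mycophenolic acid (MPA). The set holds 49 genes listed by function, and the list was drawn up with earlier results of these data known. Every probe whose annotated symbol, old or current, is one of the 49 names was taken. All 49 genes were among the 10469 genes tested. RNA of cells given MPA at 2 µg/ml was hybridised to 2 Illumina HumanHT-12 arrays each after 12, 24, 48 and 72 h, and 4 arrays hold cells harvested at 0 h of the drug. No other allele, agent or cell line enters these comparisons. The labels number the arrays within a time without saying whether they come from separate cultures, and the p-values then describe only how these arrays vary, which may be technical. Untreated cells were measured at 0 h alone, so hours with MPA and hours in culture cannot be told apart.

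MPA inhibits inosine monophosphate dehydrogenase, an enzyme of guanine nucleotide synthesis. During mitosis CDK1 with cyclins A and B drives entry, the spindle attaches to chromosomes at kinetochores, a checkpoint holds anaphase back until all are attached, and the anaphase-promoting complex then releases separase and destroys cyclin B. The mRNAs of these proteins are low early in the cell cycle and high before and in mitosis, so in a bulk RNA sample fewer cells near mitosis and less of an mRNA in each cell cannot be told apart. Many of the genes share promoter elements: the cell cycle genes homology region (CHR), which MuvB complexes bind, and the CCAAT box, which NF-Y binds.

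Most of the 49 genes were lower after MPA, and the number grew with time. Lower calls (limma over all genes, Benjamini-Hochberg adjusted p under 0.05) were 25 of 49 at 12 h, where 17.9% of all genes tested were called lower, and 27 at 24 h, against 21.3% of all genes. At 48 h 40 members were lower, against 22.8% of all genes, and at 72 h 42 were lower, against 21.4%. Higher calls numbered 1 at 12 h (16.4% of all genes), 3 at 24 h (20.4%), 1 at 48 h (20.7%) and 1 at 72 h (21%). The median log2 difference of the members was -0.40 at 12 h, -0.41 at 24 h, -0.84 at 48 h and -0.87 at 72 h, while the median of all genes was between -0.04 and -0.01 at these times. A called decrease of 2-fold or more was reached by 3 members at 12 h (2.91% of all genes), 2 at 24 h (3.82%), 13 at 48 h (4.43%) and 13 at 72 h (3.55%). In total 44 members were lower at some time and 20 at all 4 times, 4 were higher at some time, none was called in both directions and BUB3 was called at no time. How many of all genes had such calls over several times was not counted.

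**Figure D1:**
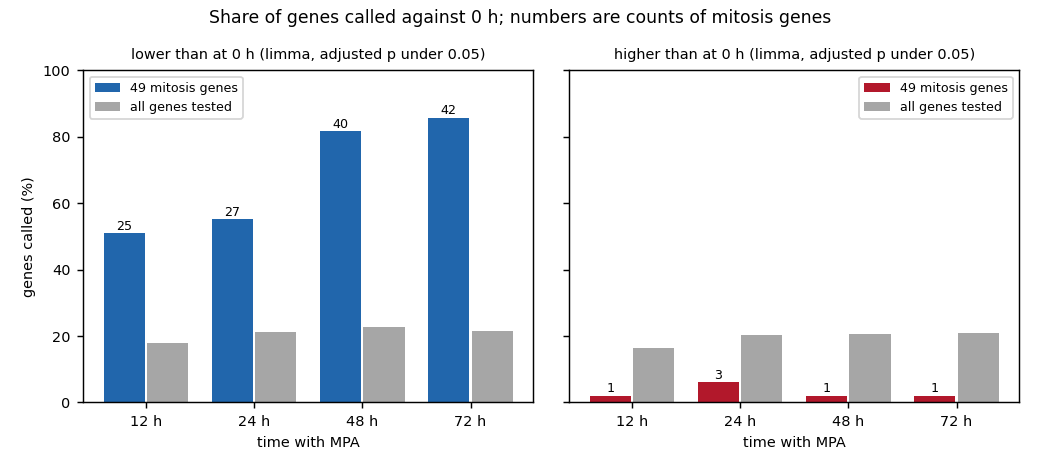
Bars give the percentage of genes called lower (left panel) or higher (right panel) at 12, 24, 48 and 72 h with MPA against 0 h, coloured for the 49 mitosis genes and grey for all 10469 genes tested. The members called lower number 25, 27, 40 and 42, while the grey bars stay between 17.9% and 22.8% for lower calls.

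The arrays separated in the same way when each was taken on its own. Both treated arrays lay below all 4 arrays of 0 h for 29 members at 12 h, which held for 25.5% of all genes, and for 33 at 24 h, against 30.3% of all genes. The same was true of 42 members at 48 h (29.7% of all genes) and of 42 at 72 h (28.6%). For 25 members all 8 treated arrays lay below all arrays of 0 h, which held for 10.8% of all genes. The mean over the 49 members, taken on the log2 scale against the 0 h mean, was -0.05 to 0.04 on the 0 h arrays, -0.36 and -0.38 on those of 12 h, -0.41 and -0.42 on those of 24 h, -0.75 and -0.74 on those of 48 h and -0.76 and -0.80 on those of 72 h. At 0 h the members had log2 intensities between 6.82 and 13.28 with a median of 11.06, against 8.87 for all genes, and each was detected on all 12 arrays.

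**Figure D2:**
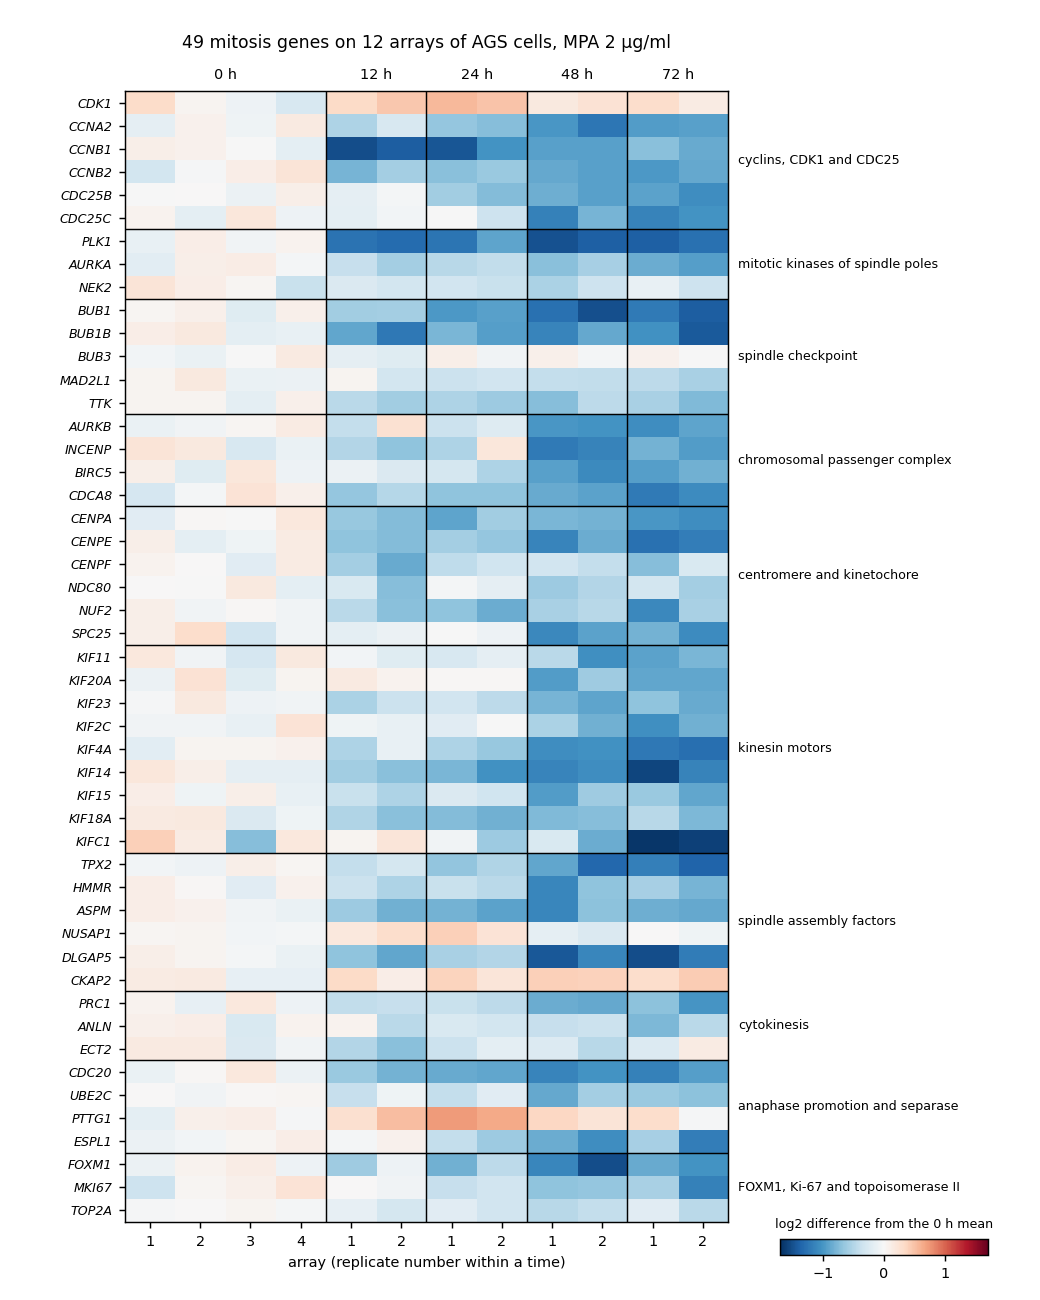
Each row is a member, ordered by role, and each column an array, in order of hours with MPA; colour gives the log2 intensity minus the gene's mean over the 4 arrays of 0 h, blue below and red above. Blue is deepest at 48 and 72 h, with CCNB1 deepest at 12 h and red rows for CDK1, CKAP2 and PTTG1.

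Some facts of the arrays bear on these counts. The number of detected probes was 14464 to 15764 on treated arrays and 14077 to 14893 on 0 h arrays, and the median raw intensity was 88.9 to 98.1 on treated arrays and 96.7 to 104.2 on 0 h arrays. A second scaling, which sets every array to the same median and leaves its distribution as it was (common-median scaling), moved the median of all genes to -0.14, -0.31 and -0.32 at 24, 48 and 72 h, and lower calls made up 62.3%, 79.1% and 80.8% of all calls at these times, against 51.1%, 52.3% and 50.5% after quantile normalization. Under that scaling 16, 27, 45 and 43 members were lower at 12, 24, 48 and 72 h and all higher calls were lost. Of all 10469 genes 1028, 2046, 3574 and 3545 were then lower and 1173, 1236, 942 and 843 higher. The median of the members minus that of all genes was -0.43, -0.43, -0.86 and -0.92. Of 7 epithelial markers with a probe, KRT8, KRT19, EPCAM and CDH1 were detected on all 12 arrays, KRT7 on 7, CLDN4 on 5 and KRT18 on none. Of 7 fibroblast markers 6 and of 6 endothelial markers 5 were detected on no array, and none of either list was detected on all. COL1A1 of the fibroblast list was detected on 7 arrays and PECAM1 of the endothelial list on 3. COL1A1 lay at log2 intensities of 5.17 to 5.92 on treated arrays and 6.44 to 6.72 on 0 h arrays. PECAM1 lay at 4.60 to 5.95 on treated arrays and 4.76 to 5.94 on 0 h arrays. Of 6 leukocyte markers with a probe PTPRC, CD3E and CD2 were detected on none and CD14 on 5, while CD68 and LYZ were detected on all 12. CD68 lay at log2 intensities of 9.54 to 10.03 on treated arrays and 9.05 to 9.43 on 0 h arrays, and LYZ at 11.36 to 11.86 on treated arrays and 11.26 to 12.21 on 0 h arrays. The part of these markers in the results was not tested.

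Promoter sequence is shown for 5 members whose values are given on every array further on, as examples with both elements, with the CCAAT box alone and with neither. Sequences are from RefSeq (GRCh38.p14), run 5′ to 3′ on the strand of the gene and end at the base before the annotated start. Capitals mark the CHR (searched as TTTGAA or TTCGAA) and the CCAAT box, each on both strands.
CCNB1 (chr5:69166900-69167149, plus strand): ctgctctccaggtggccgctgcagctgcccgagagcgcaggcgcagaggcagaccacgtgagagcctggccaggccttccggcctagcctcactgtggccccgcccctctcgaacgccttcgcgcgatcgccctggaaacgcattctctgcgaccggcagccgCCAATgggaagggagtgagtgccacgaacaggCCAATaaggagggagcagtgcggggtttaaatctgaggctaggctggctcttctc
PLK1 (chr16:23678639-23678888, plus strand): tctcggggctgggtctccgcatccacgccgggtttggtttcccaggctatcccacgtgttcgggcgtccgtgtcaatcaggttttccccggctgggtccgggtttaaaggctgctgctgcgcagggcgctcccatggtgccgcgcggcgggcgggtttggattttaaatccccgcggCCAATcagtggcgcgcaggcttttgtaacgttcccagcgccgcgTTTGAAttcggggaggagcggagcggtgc
CDC20 (chr1:43358731-43358980, plus strand): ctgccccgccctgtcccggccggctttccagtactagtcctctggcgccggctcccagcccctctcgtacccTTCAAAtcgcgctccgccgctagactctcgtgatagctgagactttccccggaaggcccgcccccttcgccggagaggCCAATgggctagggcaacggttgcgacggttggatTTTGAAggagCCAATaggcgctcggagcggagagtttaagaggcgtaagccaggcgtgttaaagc
DLGAP5 (chr14:55191586-55191835, minus strand): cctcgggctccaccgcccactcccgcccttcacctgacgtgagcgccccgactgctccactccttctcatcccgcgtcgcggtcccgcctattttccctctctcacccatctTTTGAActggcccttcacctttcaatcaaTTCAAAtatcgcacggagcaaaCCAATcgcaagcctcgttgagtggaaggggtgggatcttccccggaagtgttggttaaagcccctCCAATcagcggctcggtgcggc
CKAP2 (chr13:52455738-52455987, plus strand): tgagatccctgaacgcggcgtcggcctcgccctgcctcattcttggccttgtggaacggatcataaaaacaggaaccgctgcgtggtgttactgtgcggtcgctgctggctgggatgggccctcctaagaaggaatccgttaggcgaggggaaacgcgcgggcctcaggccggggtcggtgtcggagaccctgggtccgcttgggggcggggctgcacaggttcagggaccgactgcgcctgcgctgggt
CCNB1 has 2 CCAAT boxes, beginning 87 and 55 bases before the start, and no CHR of these letters. PLK1 has a CCAAT box at 73 and a CHR at 29 bases before the start. CDC20 has CCAAT boxes at 100 and 55 and CHR matches at 178 and 65, and DLGAP5 has 2 of each kind in the stretch shown. CKAP2 has neither. The windows of CENPE and KIF2C, both called lower, hold neither as well, and those of CDK1 and NUSAP1, both called higher at 24 h, hold both. Windows from 250 bases before to 50 after an annotated start were on hand for 42 of the 49 members, 52 windows in all; AURKA, BUB3, TTK, BIRC5, TPX2, UBE2C and FOXM1 were not matched. A CHR was present in 36 of the 52 (69.2%), against 16.4% of the 35116 windows of all genes, a CCAAT box in 39 (75%), against 34.6%, and both in 30 (57.7%), against 6.38%. An E2F-type element (TTTCCCGC, TTTCGCGC, TTTGCCGC or TTTGGCGC, either strand) was present in 5 of 52 (9.62%), against 3.31%. Among windows of members called lower at 12 h, 21 of 24 (87.5%) had a CHR. Among windows of members first called lower at 48 or 72 h, 8 of 15 (53.3%) had one. These are counts of windows and not of members, and a member with several annotated starts counts more than once. Such members are ECT2 among the earlier ones and CDC25C and AURKB among the later ones. All windows of ECT2, some of CDC25C and none of AURKB held a CHR. Of 6 windows of members called higher at some time, 3 had a CHR and 5 a CCAAT box. These are matches of letters in a fixed window and were not tested.

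The cyclins fell while their kinase did not. CCNB1, cyclin B1, which with CDK1 forms the kinase that starts mitosis, had log2 intensities of 9.56, 9.54, 9.46 and 9.30 at 0 h, 7.96 and 8.06 on the 12 h arrays, 8.01 and 8.45 on the 24 h arrays, 8.54 and 8.54 on the 48 h arrays and 8.76 and 8.60 on the 72 h arrays. All 8 treated arrays lay below all arrays of 0 h, and the mean was lowest at 12 h. The log2 difference from 0 h was -1.45 at 12 h (2.74-fold lower, standard error 0.14, adjusted p = 9.1e-06 from limma), -1.24 at 24 h, -0.93 at 48 h and -0.78 at 72 h. In the direct contrast of 72 h with 12 h, CCNB1 was 1 of the 2 members called higher at 72 h, the difference being 0.67 (adjusted p = 0.0065). Cyclin A2 (CCNA2), which acts in S phase and at entry, fell at all 4 times and most at 48 h (-1.11 ± 0.13), and cyclin B2 (CCNB2) fell by 0.67 to 0.92.

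CDK1, the catalytic partner of these cyclins, had log2 intensities of 12.05, 11.79, 11.65 and 11.47 at 0 h, 12.07 and 12.20 on the 12 h arrays, 12.29 and 12.22 on the 24 h arrays, 11.90 and 11.98 on the 48 h arrays and 12.04 and 11.88 on the 72 h arrays. The 0 h arrays spread over a wide range, and the arrays of 12 and 24 h lay above all of them while those of 48 and 72 h overlapped them. CDK1 was called higher at 24 h only, with a log2 difference of 0.52 (standard error 0.15, adjusted p = 0.014); under the common-median scaling the difference at 24 h was 0.34 and the call was lost, as it was without either 24 h array. The dimmer of its probes gave 0.67 at 24 h. The phosphatases CDC25B and CDC25C, which remove inhibitory phosphate from CDK1, moved later than the cyclins. CDC25B differed from 0 h by -0.09 at 12 h (not called), -0.66 at 24 h and -0.98 at 72 h, and CDC25C by -0.11 and -0.18 at 12 and 24 h (neither called), -0.97 at 48 h and -1.08 at 72 h.

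Polo-like kinase 1 (PLK1), which matures centrosomes and acts throughout mitosis, was 2-fold or more lower at every time. Its log2 intensities were 9.92, 10.16, 9.99 and 10.10 at 0 h, 8.79 and 8.74 on the 12 h arrays, 8.79 and 9.14 on the 24 h arrays, 8.56 and 8.65 on the 48 h arrays and 8.65 and 8.78 on the 72 h arrays. Treated arrays lay between 8.56 and 9.14 and 0 h arrays between 9.92 and 10.16, with no overlap. The difference was -1.28 at 12 h, -1.07 at 24 h, -1.44 at 48 h (adjusted p = 2.5e-06 from limma) and -1.32 at 72 h, each with a standard error of 0.13. Aurora A (AURKA), the kinase of spindle poles, fell at all 4 times, by 0.44 to 0.89, though its 24 h call was lost without either 24 h array. NEK2, which separates centrosomes, was lower at 48 h only (-0.44, standard error 0.15, adjusted p = 0.034); leaving out 0 h replicate 1, 2 or 3 or either 48 h array ended this call. Its dimmer probe differed by -0.93 at 72 h, where the brighter one differed by -0.24.

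**Figure D3:**
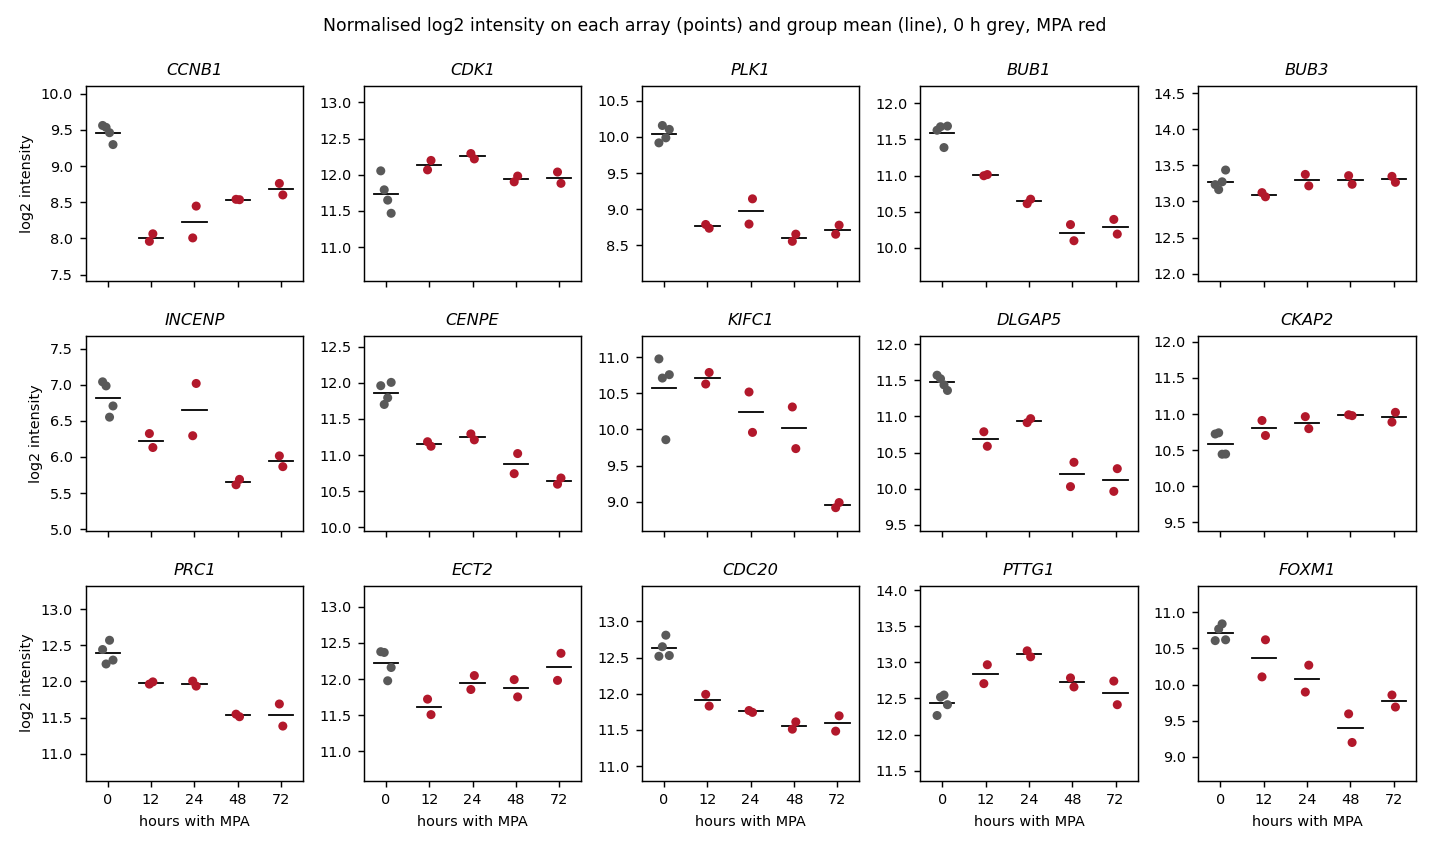
Points are normalised log2 intensities on single arrays against hours with MPA, grey for the 4 arrays of 0 h and red for the 2 arrays of each treated time, with lines at group means; each panel spans the same log2 range. PLK1, CCNB1, BUB1, CENPE, DLGAP5, PRC1 and CDC20 have all 8 treated points below the grey ones, and CDK1, PTTG1 and CKAP2 have treated points above them.

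Of 5 spindle checkpoint genes, 3 were lower at 12 h, against 17.9% of all genes. At 24, 48 and 72 h 4 of them were lower, against 21.3%, 22.8% and 21.4% of all genes. BUB1, the kinase that recruits other checkpoint proteins to the kinetochore, had log2 intensities of 11.63, 11.68, 11.39 and 11.68 at 0 h, 10.998 and 11.01 on the 12 h arrays, 10.61 and 10.67 on the 24 h arrays, 10.32 and 10.10 on the 48 h arrays and 10.39 and 10.19 on the 72 h arrays. The treated arrays were all below the 0 h arrays and those of 48 and 72 h were lowest. Its differences were -0.59, -0.95, -1.38 and -1.30 at 12, 24, 48 and 72 h (standard error 0.12, largest adjusted p = 0.0031, at 12 h). BUB1B, the pseudokinase BubR1 that restrains CDC20, fell by 0.85 to 1.23, and the checkpoint kinase TTK fell by 0.52 to 0.65, both at all times. MAD2L1, which binds CDC20, was lower from 24 h on, by 0.34 to 0.50. Its call at 24 h (adjusted p = 0.048) was lost in 12 of 24 alternatives, among them without 0 h replicate 1 or 2 and without any single array of 24, 48 or 72 h. The call at 48 h was lost without 0 h replicate 2 or either 48 h array, and that at 72 h without 72 h replicate 2. A much dimmer probe of MAD2L1 was lower at 12 and 24 h, by 0.61 and 0.55, and not called later.

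BUB3, the WD-repeat partner of BUB1 and BubR1, had the highest 0 h level of the 49 and was called at no time. Its log2 intensities were 13.23, 13.16, 13.27 and 13.44 at 0 h, 13.12 and 13.07 on the 12 h arrays, 13.37 and 13.22 on the 24 h arrays, 13.36 and 13.24 on the 48 h arrays and 13.35 and 13.27 on the 72 h arrays. Both 12 h arrays lay just below the 0 h arrays, and those of the later times overlapped them. The difference at 12 h was -0.18 (standard error 0.11, adjusted p = 0.24), and at 24 to 72 h it was between 0.02 and 0.03. The probes of BUB3 differ: a probe annotated to the transcript NM_001007793 was lower at 12 h, by 0.89, and at 24 h, by 0.63 (adjusted p = 0.00028 and 0.0022 from limma over all probes), while another probe of the main transcript had differences of 0.16 to 0.43 that were not called.

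All 4 genes of the chromosomal passenger complex were lower at 48 and 72 h, against 22.8% and 21.4% of all genes. At 12 and 24 h 2 of 4 were lower, against 17.9% and 21.3% of all genes. The complex corrects faulty attachments and later directs cytokinesis. INCENP, its scaffold, had log2 intensities of 7.04, 6.98, 6.55 and 6.71 at 0 h, 6.32 and 6.13 on the 12 h arrays, 6.29 and 7.02 on the 24 h arrays, 5.62 and 5.69 on the 48 h arrays and 6.01 and 5.87 on the 72 h arrays. The arrays of 12, 48 and 72 h lay below all 0 h arrays, while 1 array of 24 h lay near the top of the 0 h range. INCENP differed from 0 h by -0.59 at 12 h, -0.16 at 24 h (adjusted p = 0.52, not called), -1.17 ± 0.19 at 48 h and -0.88 at 72 h, and it was the dimmest member at 0 h. Its call at 12 h was lost without either 12 h array or without 0 h replicate 1 or 2. Aurora B (AURKB), the kinase of the complex, differed by -0.07 and -0.29 at 12 and 24 h (neither called) and by -1.002 and -0.98 at 48 and 72 h. Survivin (BIRC5) fell from 24 h on, by 0.41 to 1.01, and borealin (CDCA8) fell at all 4 times, by 0.57 to 1.13. The 24 h call of BIRC5 was lost without 0 h replicate 1 or 3 or 24 h replicate 2.

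Of the 6 centromere and kinetochore genes, 5 were lower at 12 h, 3 at 24 h, 5 at 48 h and 6 at 72 h. Among all genes 17.9%, 21.3%, 22.8% and 21.4% were lower at these times. CENPE, a kinesin of the kinetochore that carries chromosomes to the spindle equator, had log2 intensities of 11.96, 11.70, 11.79 and 12.01 at 0 h, 11.18 and 11.12 on the 12 h arrays, 11.29 and 11.21 on the 24 h arrays, 10.74 and 11.02 on the 48 h arrays and 10.60 and 10.68 on the 72 h arrays. Every treated array was below every 0 h array, and the 72 h arrays were the lowest. The difference was -0.71 at 12 h, -0.61 at 24 h, -0.98 at 48 h and -1.22 at 72 h (standard error 0.12, adjusted p = 1e-05 at 72 h). CENPA, the histone variant that marks the centromere, fell at all 4 times by 0.69 to 1.03. CENPF, a large protein of the outer kinetochore, was lower at 12 h (-0.72) and 72 h (-0.49) and not called between them (-0.38 and -0.36). All 8 treated arrays of CENPF lay below all its 0 h arrays. Without 72 h replicate 1 its 72 h difference was -0.26 and not called (adjusted p = 0.26). The subunits of the microtubule-binding NDC80 complex were called at different times, and differences between these genes were not tested. NUF2 was called lower at all 4 times (0.51 to 0.82) and NDC80 at 12, 48 and 72 h (0.45 to 0.56). SPC25 was called at 48 and 72 h only (-1.002 and -0.93). A much dimmer probe of SPC25, detected on 9 arrays, differed by -0.89 at 12 h (not called) and was called lower at 48 h (-1.85) and 72 h (-1.02). Without 12 h replicate 2 the 12 h difference of NDC80 was -0.26 and not called (adjusted p = 0.30). Its calls at 48 and 72 h were lost without 48 h replicate 1, and without 0 h replicate 3 or 72 h replicate 2. The calls of NUF2 were lost at 12 h without 12 h replicate 2 and at 48 h without either 48 h array. Its other probe differed by 0.01 at 12 h and was called lower at 72 h only (-0.78).

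The number of kinesin motors called lower grew with time, as it did for the whole set: 4 of 9 at 12 h, 4 at 24 h, 8 at 48 h and 9 at 72 h. Of all genes 17.9%, 21.3%, 22.8% and 21.4% were lower at these times. KIFC1, a minus-end-directed motor that gathers spindle poles, had log2 intensities of 10.98, 10.71, 9.86 and 10.76 at 0 h, 10.63 and 10.79 on the 12 h arrays, 10.52 and 9.96 on the 24 h arrays, 10.31 and 9.74 on the 48 h arrays and 8.92 and 8.99 on the 72 h arrays. Its 72 h arrays lay well below all others, and the arrays of 12, 24 and 48 h overlapped those of 0 h, which themselves spread from 9.86 to 10.98. KIFC1 had the largest difference of any member at 72 h, -1.62 (standard error 0.27, adjusted p = 0.00046), and no call at 12 h (0.13), 24 h (-0.34) or 48 h (-0.55).

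The other motors were first called at different times. KIF14, which acts at the midbody, KIF18A, which damps chromosome movements, and KIF23, a part of centralspindlin, were lower at all 4 times, with differences at 72 h of -1.35, -0.62 and -0.77. A dimmer probe of KIF23 was called lower at 12 and 48 h and not at 24 h (-0.21) or 72 h (-0.08). The 24 h call of the brighter one was lost without either 24 h array. The 72 h call of KIF18A was lost without 72 h replicate 2. KIF15, a motor that can stand in for KIF11, was called lower at 12 h (-0.46), 48 h (-0.78) and 72 h (-0.76). It was not called at 24 h, though all 8 treated arrays lay below all its 0 h arrays. KIF4A, a chromosome-bound motor, was lower from 24 h on and reached -1.25 at 72 h; a near-identical copy, KIF4B, may share its probe. KIF11, which pushes spindle poles apart, KIF20A, which takes the passenger complex to the midzone, and KIF2C, which shortens microtubules, were called at 48 and 72 h only. Both probes of KIF11 were nearly equal in brightness and were lower at both times, at 72 h by 0.85 and 0.56. Without 48 h replicate 2 the 48 h difference of KIF11 was -0.39 and not called. KIF20A, picked here after its values were seen, had log2 intensities of 11.26, 11.60, 11.15 and 11.40 at 0 h, 11.51 and 11.42 on the 12 h arrays, 11.37 and 11.37 on the 24 h arrays, 10.41 and 10.75 on the 48 h arrays and 10.47 and 10.46 on the 72 h arrays. Its arrays of 12 and 24 h lay within the 0 h range, and those of 48 and 72 h all lay below it.

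**Figure D4:**
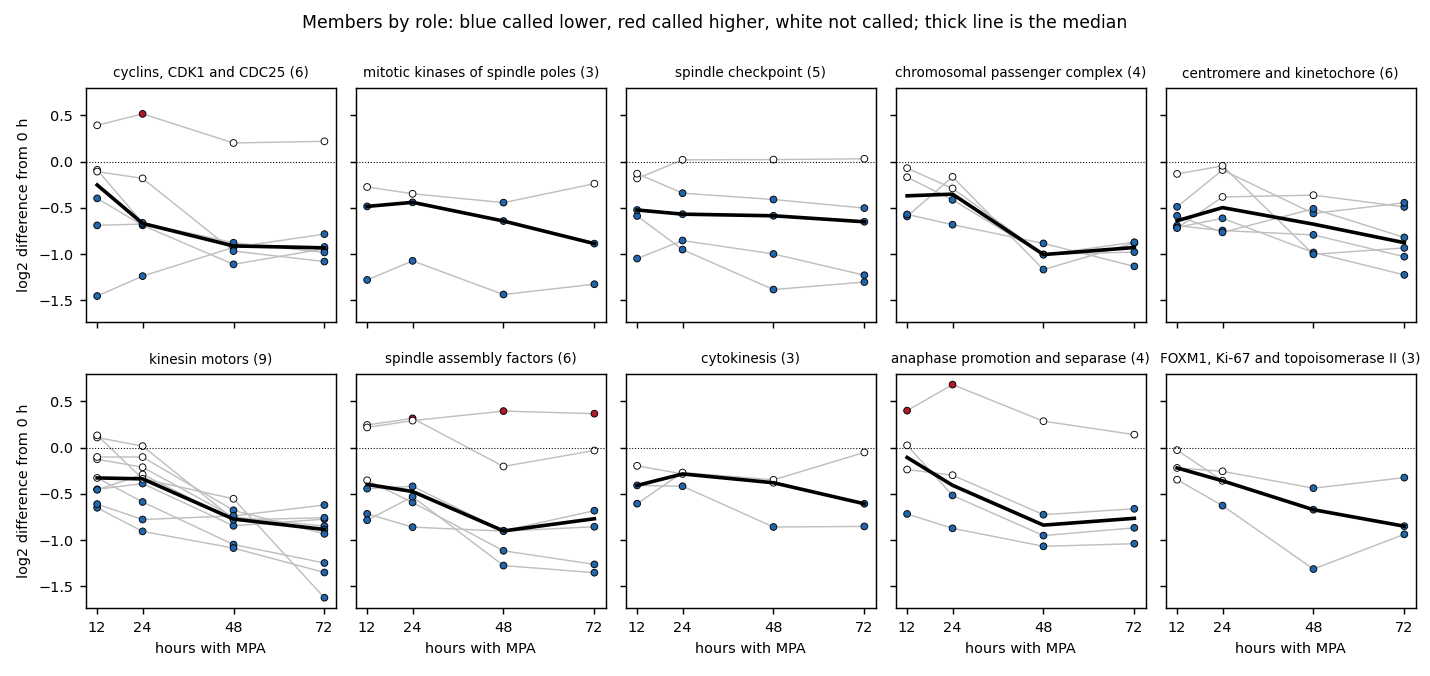
Each thin line is a member within its role group, plotting the log2 difference from 0 h against hours with MPA, with blue points called lower, red points called higher and white points not called; the thick line is the group median. At 48 h all 4 passenger complex genes lie between -1.17 and -0.88, and at 72 h the 9 kinesin motors lie between -1.62 and -0.62.

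Spindle assembly factors held members that fell at every time and members that did not. DLGAP5 (HURP), which stabilises kinetochore fibres, had log2 intensities of 11.57, 11.52, 11.44 and 11.36 at 0 h, 10.79 and 10.59 on the 12 h arrays, 10.91 and 10.97 on the 24 h arrays, 10.03 and 10.37 on the 48 h arrays and 9.96 and 10.28 on the 72 h arrays. Its 8 treated arrays lay below all 0 h arrays, and the arrays of 48 and 72 h were below those of 12 and 24 h. The difference was -0.78, -0.53, -1.27 and -1.35 at 12, 24, 48 and 72 h (standard error 0.13, adjusted p = 8.9e-06 at 72 h), and the call at 24 h was lost without 24 h replicate 1. ASPM, a spindle pole protein, fell by 0.72 to 0.90 and HMMR, which binds spindle microtubules, by 0.42 to 0.90, both at all times. The calls of HMMR at 12 and 24 h were each lost without 0 h replicate 1, 2 or 4 or without either array of that time. TPX2, which activates Aurora A, was lower from 24 h on and reached -1.26 at 72 h, its 24 h call being lost without 24 h replicate 1.

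CKAP2 and NUSAP1 went the other way at some times. CKAP2, a microtubule-associated protein, had log2 intensities of 10.72, 10.74, 10.44 and 10.45 at 0 h, 10.91 and 10.70 on the 12 h arrays, 10.96 and 10.80 on the 24 h arrays, 10.99 and 10.98 on the 48 h arrays and 10.89 and 11.02 on the 72 h arrays. The arrays of 24, 48 and 72 h lay above all 0 h arrays. The difference was 0.40 (standard error 0.13, adjusted p = 0.025) at 48 h and 0.37 (standard error 0.13, adjusted p = 0.036) at 72 h; under the common-median scaling both calls were lost (0.02 and -0.02), and the dimmer probe of the gene was not called at any time. Leaving out 0 h replicate 3 or 4, or either array of the treated time, also ended each of these calls. NUSAP1, which bundles spindle microtubules, was called higher at 24 h (0.32, standard error 0.11, adjusted p = 0.030), a call lost under that scaling (0.13) and without 0 h replicate 3 or 4 or 24 h replicate 1, and its dimmer probe was lower at 72 h by 0.63. Both 48 h arrays of NUSAP1 lay below all its 0 h arrays, without a call (-0.20). Under the common-median scaling NUSAP1 was called lower at 48 h (-0.62, adjusted p = 0.014 from limma).

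Among cytokinesis genes PRC1 and ECT2 moved apart with time. PRC1, which bundles midzone microtubules, had log2 intensities of 12.44, 12.24, 12.57 and 12.29 at 0 h, 11.96 and 11.99 on the 12 h arrays, 12.003 and 11.93 on the 24 h arrays, 11.55 and 11.51 on the 48 h arrays and 11.69 and 11.38 on the 72 h arrays. All treated arrays were below the 0 h arrays, and its difference was -0.41, -0.42, -0.86 and -0.85 at the 4 times (standard error 0.13, adjusted p = 0.00017 at 48 h). The calls of PRC1 at 12 and 24 h were each lost without either array of that time, and that at 12 h also without 0 h replicate 3. ECT2, the exchange factor that activates RhoA at the division plane, was also picked after its values were seen, with log2 intensities of 12.38, 12.37, 11.98 and 12.16 at 0 h, 11.72 and 11.51 on the 12 h arrays, 11.86 and 12.05 on the 24 h arrays, 11.99 and 11.75 on the 48 h arrays and 11.98 and 12.36 on the 72 h arrays. The 12 h arrays lay below the 0 h arrays, and the 72 h arrays lay within their range. ECT2 was lower at 12 h only (-0.61, standard error 0.15, adjusted p = 0.0095) and its 72 h level exceeded that of 12 h by 0.55 (adjusted p = 0.031). Its call at 12 h was lost without 12 h replicate 2. Anillin (ANLN), a scaffold of the contractile ring, was called lower at 72 h only (-0.61), a call lost without 72 h replicate 1. Its arrays of 24 and 48 h also lay below all its 0 h arrays.

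The genes of anaphase onset split between activators and securin. CDC20, the coactivator of the anaphase-promoting complex, had log2 intensities of 12.52, 12.65, 12.81 and 12.53 at 0 h, 11.99 and 11.83 on the 12 h arrays, 11.77 and 11.74 on the 24 h arrays, 11.51 and 11.61 on the 48 h arrays and 11.48 and 11.70 on the 72 h arrays. No treated array reached the 0 h arrays, and the difference was -0.72, -0.87, -1.07 and -1.04 at the 4 times (standard error 0.12, adjusted p = 2.3e-05 at 48 h). UBE2C, a ubiquitin-conjugating enzyme of the complex, was called lower at 48 and 72 h (-0.72 and -0.66), though all 8 treated arrays lay below its 0 h arrays. A much dimmer probe of UBE2C was lower at all times, by 0.84 to 1.27. Separase (ESPL1), the protease that cuts cohesin, was lower from 24 h on, by 0.52 to 0.95. Without 24 h replicate 2 its 24 h call was lost, and without 72 h replicate 2 its 72 h difference was -0.56, still called.

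Securin (PTTG1), the inhibitor of separase, had log2 intensities of 12.26, 12.52, 12.55 and 12.41 at 0 h, 12.71 and 12.97 on the 12 h arrays, 13.16 and 13.08 on the 24 h arrays, 12.78 and 12.66 on the 48 h arrays and 12.74 and 12.41 on the 72 h arrays. The arrays of 12, 24 and 48 h lay above all 0 h arrays, highest at 24 h, while 1 of the 72 h arrays did not. PTTG1 was higher at 12 h by 0.40 (adjusted p = 0.035) and at 24 h by 0.68 (adjusted p = 0.0014), the largest increase of any member; under the common-median scaling the values were 0.35 and 0.50, neither called. The near-identical genes PTTG2 and PTTG3P may share its probes. Leaving out 0 h replicate 1 or 4, or 12 h replicate 2, ended the 12 h call of PTTG1, as did averaging its probes. The dimmer of its probes differed by 0.21 at 12 h (not called) and was called higher at 24 h (0.62).

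FOXM1, a transcription factor of late cell cycle genes, had log2 intensities of 10.61, 10.77, 10.84 and 10.62 at 0 h, 10.11 and 10.62 on the 12 h arrays, 9.90 and 10.27 on the 24 h arrays, 9.60 and 9.20 on the 48 h arrays and 9.86 and 9.69 on the 72 h arrays. At 12 h 1 of 2 arrays lay within the 0 h range, and from 24 h on all arrays lay below it. The difference was -0.35 at 12 h (not called), -0.63 at 24 h, -1.31 ± 0.17 at 48 h (adjusted p = 6.2e-05) and -0.94 at 72 h, and the call at 24 h was lost without 24 h replicate 1. MKI67 encodes the proliferation marker Ki-67 that coats mitotic chromosomes, and TOP2A a topoisomerase that untangles sister DNA. Both were called lower at 48 and 72 h only, though all 8 treated arrays of TOP2A lay below all its 0 h arrays. At 48 and 72 h MKI67 was lower by 0.67 and 0.85 and TOP2A by 0.44 and 0.32. The 48 h calls of both were lost without 48 h replicate 1. The 72 h calls of both were lost without 72 h replicate 2, where MKI67 differed by -0.55 and TOP2A by -0.19, and that of TOP2A also without 0 h replicate 2 or 3.

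Of the direct comparisons between neighbouring treated times, that of 48 h with 24 h gave the most calls. At 24 h against 12 h CDC25B alone was lower (-0.57, standard error 0.13, adjusted p = 0.018), against 2.31% of all genes lower and 4.59% higher, and no member was higher (1 at an unadjusted p under 0.05). At 48 h against 24 h 11 members were lower and none higher (none at an unadjusted p under 0.05 either), against 6.54% of all genes lower and 4.52% higher: CDC25C, AURKB, INCENP, BIRC5, SPC25, KIF20A, KIF23, KIF2C, NUSAP1, DLGAP5 and FOXM1. The largest of these differences was that of INCENP, -1.002, followed by SPC25 (-0.96). This count rests on each of the arrays compared, being 1 without 24 h replicate 1, 2 without 24 h replicate 2, 3 without 48 h replicate 1 and 4 without 48 h replicate 2. At 72 h against 48 h no member was called in limma, against 1.22% of all genes lower and 0.802% higher, and at an unadjusted p under 0.05 only KIFC1 was lower (-1.07). 

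At 72 h against 12 h 23 members were lower, against 15.9% of all genes, and 2 were higher, CCNB1 and ECT2, against 17.2% of all genes. The members lower at 72 h than at 12 h included 6 of 9 kinesin motors, 3 of 4 passenger complex genes and both CDC25 phosphatases. KIFC1 had the largest difference between these times, -1.75 ± 0.31, followed by KIF20A (-0.99 ± 0.16) and CDC25C (-0.97 ± 0.17). PLK1 and KIF18A, both lower at all times, differed between 72 and 12 h by -0.05 and -0.01, with standard errors of 0.14 and 0.16. Without 72 h replicate 1, 14 members were lower, and 1 was higher without 12 h replicate 2 or 72 h replicate 2. Under the common-median scaling 31 members were lower and both higher calls were lost, with a median of all genes of -0.31. Of all 10469 genes 2713 were lower and 460 higher under that scaling.

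**Figure D5:**
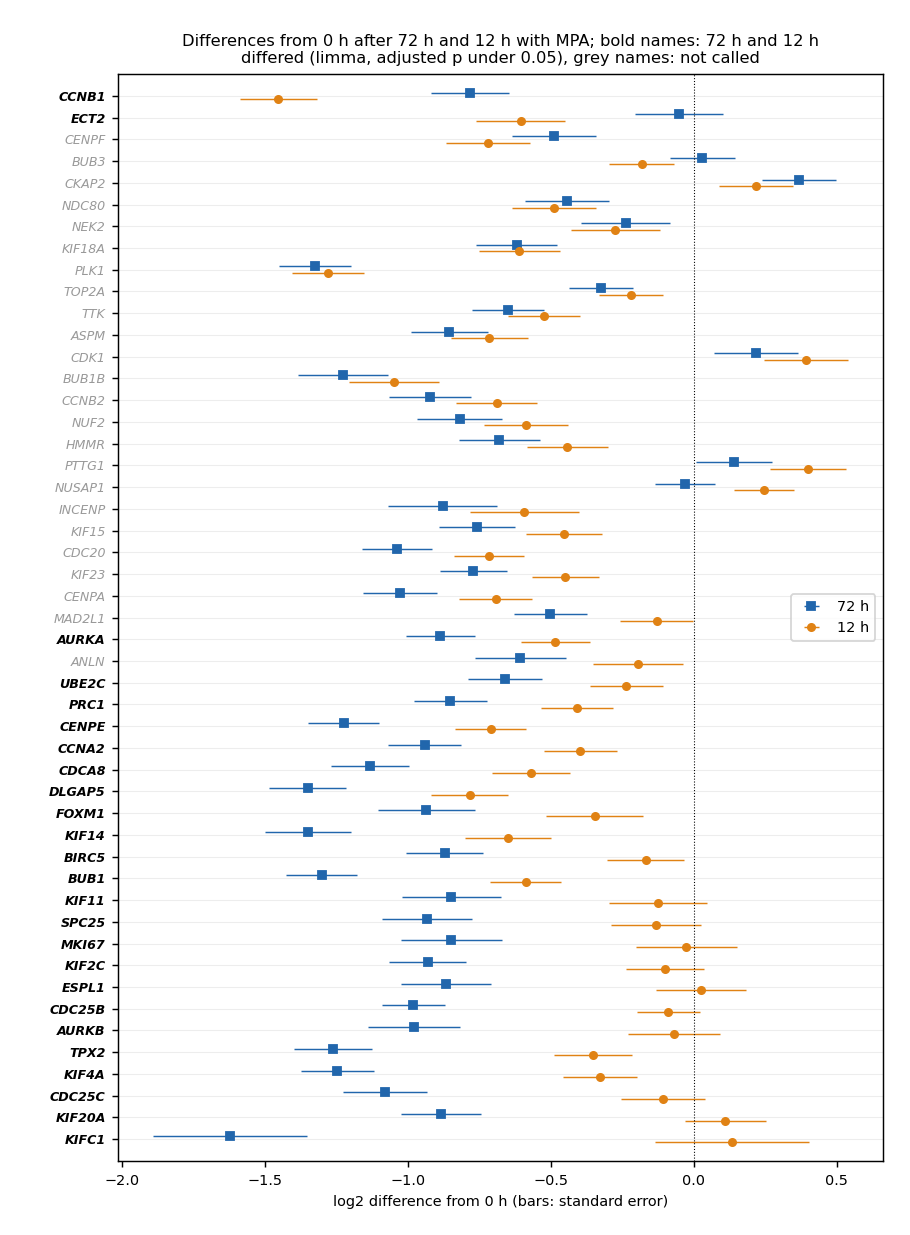
For each member the log2 difference from 0 h is shown at 72 h (blue squares) and 12 h (orange circles), with bars of 1 standard error, ordered by the difference between these times. Bold names mark members whose 72 and 12 h levels differed: CCNB1 and ECT2 at the top, with 72 h higher, and 23 others, with KIFC1 at the bottom, where 72 h was lower.

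The time courses of the 49 genes can be given as groups. Besides the 20 genes called lower at all 4 times, 7 were called lower from 24 h on (CDC25B, MAD2L1, BIRC5, KIF4A, TPX2, ESPL1 and FOXM1). A further 9 were called lower at 48 and 72 h only (CDC25C, AURKB, SPC25, KIF11, KIF20A, KIF2C, UBE2C, MKI67 and TOP2A). The share of all genes with each of these time courses was not counted. These groups rest on the threshold: all 8 treated arrays lay below all 0 h arrays for TPX2, UBE2C and TOP2A too. The same held for CENPF and KIF15, which are in none of these groups. INCENP, NDC80 and KIF15 missed the threshold at 24 h alone. The largest difference from 0 h, in either direction, came at 72 h for 21 members, at 48 h for 20, at 24 h for 4 and at 12 h for 4. The 12 h count of lower members was the least stable of the 4, being 16 without 12 h replicate 2 and 16 under the common-median scaling. Leaving out 12 h replicate 2 ended the 12 h calls of AURKA, TTK, KIF14, KIF15 and KIF18A besides those named above, and leaving out 12 h replicate 1 those of CCNA2, CDCA8 and KIF23. That of CCNA2 was also lost without 0 h replicate 2 or 4. Of the 140 calls of members against 0 h, 96 held under every alternative tried and 44 were lost under at least 1.

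Other genes of mitosis were called in both directions. From 162 further genes of the kinetochore, cohesin and condensin, the anaphase-promoting complex, centrosome and spindle, entry kinases, DREAM and E2F factors and brakes on entry, 143 were tested, and 25, 25, 56 and 44 were lower and 23, 23, 14 and 17 higher at 12, 24, 48 and 72 h, with medians of -0.01, -0.05, -0.25 and -0.23. Set beside the shares of all genes (17.9%, 21.3%, 22.8% and 21.4% lower and 16.4%, 20.4%, 20.7% and 21% higher), the counts at 12 and 24 h were no larger than those of genes in general. Among 35 other kinetochore and centromere genes 14 were lower and 2 higher at 48 h, with the inner kinetochore gene CENPI at -1.04 at 48 h, SKA2, which tracks microtubule ends, at -1.15 at 72 h and the checkpoint gene MAD1L1 at -1.52 at 12 h. Of 18 cohesin, condensin and shugoshin genes 9 were lower at 48 h; the cohesin subunit gene STAG1 was at -1.74 at 12 h, and the condensin genes SMC4 and NCAPG2 were at -0.92 at 24 h and -1.03 at 48 h. Of 35 spindle, centrosome and cytokinesis genes 19 were lower and 1 higher at 48 h, among them PSRC1 (-1.36), and TUBGCP3 of the gamma-tubulin ring was at -1.49 at 24 h and TROAP at -1.07 at 72 h.

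Of 14 genes of the anaphase-promoting complex 3 were lower and 1 higher at 48 h, when 22.8% of all genes were lower and 20.7% higher. The large subunit gene ANAPC1 was lower at 48 h (-1.24 ± 0.13), and at 72 h ANAPC15 was at -1.10 and CDC16 at 0.66. Among 15 other entry kinases and phosphatases 4 were lower and 3 higher at 48 h; PKMYT1, which phosphorylates CDK1, was at -0.97 at 72 h, PLK2 at 0.83 at 48 h and cyclin F (CCNF) at -0.64 at 12 h. Of 20 DREAM, E2F and NF-Y genes 6 were lower and 4 higher at 48 h, against the same 22.8% and 20.7% of all genes. The repressor gene E2F7 was higher (1.65 ± 0.14) and E2F5 lower (-1.55 ± 0.15) at 24 h, and RB1 was at 0.93 at 72 h. Of 6 brakes on entry 3 were higher and 1 lower at each time, when 16.4% to 21% of all genes were higher and 17.9% to 22.8% lower. The lowest of the 6 was at -0.87 at 72 h. The higher ones were SFN, which holds CDK1 with cyclin B in the cytoplasm, GADD45A and CDKN1A, the CDK inhibitor p21. At 24 h they rose by 2.07, 1.56 and 1.03 (adjusted p = 2.2e-06, 5.4e-07 and 0.00019 from limma).

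DNA replication genes, which peak earlier in the cell cycle, are the nearest group. Of 46 licensing and fork genes tested, 5 were lower and 13 higher at 12 h, where 25 mitosis genes were lower and 1 higher and 17.9% of all genes were lower and 16.4% higher. At 48 h 22 of the 46 were lower and 3 higher (22.8% and 20.7% of all genes), and at 72 h 13 were lower and 1 higher (21.4% and 21%). Their medians were 0.16, 0.05, -0.33 and -0.18 at 12, 24, 48 and 72 h, with GINS4, a helicase subunit gene, at 1.34 at 12 h, the origin gene ORC1 at -1.16 at 48 h and the chromatin assembly gene CHAF1A at -1.44 at 72 h. The difference between the groups of genes was not tested.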

How the data were processed

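RNA of AGS cells was labelled from an oligo-dT primer and hybridised to 12 Illumina HumanHT-12 arrays. The deposited intensity values are mean bead signals of 48803 probes, without normalization between arrays. The detection score deposited beside each intensity is 1 minus the detection p. The log2 values deposited by the authors come from lumi preprocessing, with settings not given in the sources used here.

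In R 4.3.3, limma 3.58.1 (with statmod 1.5.0) subtracted background by the normexp model, for which negative controls were inferred from detection p-values, added 16, took log2 and quantile normalized the arrays. Probes that name 1 gene were kept where 2 or more arrays gave a detection p under 0.01, and a gene was read from its brightest kept probe, by the mean of all 12 arrays, which gave 10469 genes. The annotation used is of an earlier version of the array than the study names. Of 74 probes of the members 70 were kept, and 19 members had several. A difference is given as a log2 difference with the standard error of the moderated fit. The number of arrays limits the precision: the standard deviation of log2 differences over genes was 0.252 to 0.318 between arrays of a group (10 pairs) and 0.35 to 0.712 between arrays of different groups (56 pairs).

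All 5 groups were fitted together without covariates. There were 8 comparisons: each time with 0 h, each treated time with the preceding one, and 72 h with 12 h. P-values were two-sided, and those of all 10469 genes were adjusted together after Benjamini and Hochberg, with a threshold of 0.05. The procedure was tested on simulated data. Alternatives were the authors' lumi values, no background correction, an offset of 50, scaling to a common median, no filter or detection on all arrays, averaged probes, a fit to only the groups compared, a replicate block, array weights, a trended prior variance, a threshold of 0.01, and each array left out.

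The members and gene lists were chosen with earlier results of these data known. Values on every array are given, in each role group, for the member with the largest called difference in each direction. From every other list the 3 largest called differences are named.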

Additional observations from a re-analysis of the deposited data

Results flagged for a closer look

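For 25 members the difference from 0 h was not the same after 72 h as after 12 h of MPA, by the direct test of 72 h against 12 h (limma, adjusted p under 0.05; values are log2 differences, 72 h minus 12 h). The members with the largest decreases between these times were KIFC1 (-1.75), KIF20A (-0.99), CDC25C (-0.97), KIF4A (-0.92), TPX2 (-0.91), AURKB (-0.91), CDC25B (-0.89) and ESPL1 (-0.89). Smaller ones were KIF2C (-0.83), MKI67 (-0.82), SPC25 (-0.80), KIF11 (-0.72), BUB1 (-0.71), BIRC5 (-0.70) and KIF14 (-0.70), and FOXM1 (-0.59), DLGAP5 (-0.57), CDCA8 (-0.56), CCNA2 (-0.54), CENPE (-0.51), PRC1 (-0.44), UBE2C (-0.42) and AURKA (-0.40). The opposite direction was seen for CCNB1 (0.67) and ECT2 (0.55), whose mean was lowest at 12 h. As both times are set against the same 0 h arrays, the direct contrast and not the pair of differences from 0 h carries this result.

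At 0 h 1 array stood apart from the other 3 for 2 of the 49 members, about the share (1 in 20) that chance gives. KIF4A was at 9.53 on replicate 1 and at 9.75 to 9.78 on the others, a gap of 0.872 of the range of the group. ANLN was at 10.76 on replicate 3 and at 11.07 to 11.13 on the others, a gap of 0.862 of the range.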

How the results depend on the processing

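Of 140 calls of members against 0 h, 96 kept direction and side of the threshold under every alternative, 44 were lost under at least 1, and 1 of those 44 turned: CKAP2 at 72 h was -0.0229 under common-median scaling. The replicate numbers did not pair the arrays (deviations of same-numbered arrays correlated between -0.142 and 0.15 over 10 pairs of groups); with the replicate block 120 calls held and 20 were lost, higher counts were 0, 1, 0 and 0 at 12, 24, 48 and 72 h, and 1 member was lower at 72 h against 48 h. Common-median scaling gave 16 lower at 12 h, 0 higher at all times and for 72 h against 12 h, and 0 lower at 24 h against 12 h. Higher counts at 12 h were 2 with the lumi values, no background correction, an offset of 50 or detection on all arrays, 3 with a variance trend and 0 with no filter or only the groups compared. At 48 h they were 2 with the trend and 0 with the mean of probes. At 72 h they were 0 with no filter, the mean of probes, only the groups compared or array weights. For 24 h against 12 h, 2 were lower with the lumi values or no background correction and 0 with only the groups compared. For 48 h against 24 h, 22 were lower with the lumi values, 21 without background correction, 17 with an offset of 50, 21 with the trend and 4 with only the groups compared. For 72 h against 48 h, 1 was lower with the lumi values, no background correction, an offset of 50 or the trend, and for 72 h against 12 h 1 was higher with only the groups compared. At a threshold of 0.01 higher counts were 0, 1, 0 and 0, lower counts were 0 at 24 h against 12 h, 1 at 48 h against 24 h and 14 at 72 h against 12 h, where 1 was higher. Leaving out single arrays, lower counts ranged over 16 to 26 at 12 h, 19 to 28 at 24 h, 34 to 43 at 48 h and 37 to 43 at 72 h, and over 0 to 2 at 24 h against 12 h, 1 to 11 at 48 h against 24 h, 0 to 1 at 72 h against 48 h and 14 to 23 at 72 h against 12 h. Higher counts ranged over 0 to 1 at 12, 48 and 72 h, 1 to 3 at 24 h and 1 to 2 at 72 h against 12 h. The causes were not tested.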
